A study of Canis lupus familiaris with 48 samples.

Results

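Gene expression was compared between MDCK I cells kept in medium with added NaCl and MDCK I cells kept in medium with added raffinose, at the same osmolality. The comparison rests on 24 of the 48 RNA sequencing libraries of the series, 12 after NaCl and 12 after raffinose, taken by their titles and paired by cell passage number. MDCK I is an established epithelial line from dog kidney with tight cell junctions. The cells were grown for 144 h, and in the last 24 h the medium held 200 mOsm of added NaCl (500 mOsm in all), 200 mOsm of added raffinose (500 mOsm), 200 mOsm of added urea (500 mOsm) or nothing added (control, 300 mOsm). All groups are passages of this 1 line, between passage 1 and passage 19, with 12 libraries per group. With passage as a block, the p-values measure the spread of same-passage differences over passages, and not a spread between animals. Whether libraries of 1 passage came from the same culture was not given in the sources used here.

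NaCl and raffinose both stay largely outside the cell, draw water out and so raise the tonicity of the medium. Kidney cells are known to answer a rise in tonicity by taking up or making organic osmolytes, a program in which the transcription factor NFAT5 has a central part. NaCl also changes the concentration of ions outside the cell, whereas raffinose is an uncharged sugar. The contrast therefore sets an ionic against a non-ionic solute at equal osmolality. Urea crosses cell membranes far more readily and serves here, with control medium, as background for the levels.

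The count table lists Ensembl identifiers without symbols, and 0 of 32704 identifiers matched an entry of the RefSeq gene table used here. Transporters, osmolyte genes and cell type markers could therefore not be looked up by name, and the epithelial identity of the cells was not checked against markers. Genes are described by identifier, position on dog genome build CanFam3.1, and class, and no sequence is shown. Levels are in CPM, read counts scaled to a common library size and not divided by gene length, so they are not compared between genes. Library totals ran from 6.77 to 14.4 M reads (megareads) after NaCl (median 11.9 M) and from 6.60 to 16.2 M after raffinose (median 10.1 M), and 1 CPM stood for 6.22 to 14.9 reads after scaling. The totals differed by 1.10 ± 3.59 M between same-passage libraries (mean and SD of NaCl minus raffinose, n = 12 pairs), with NaCl deeper in 9 of 12 pairs (two-sided exact permutation test over pairs, p = 0.313).

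The difference between NaCl and raffinose was wide but shallow. Of 12208 genes tested with passage as a block, 4052 (33.2%) passed edgeR's quasi-likelihood test at an adjusted p under 0.05. NaCl was higher than raffinose in 1959 genes (16% of those tested) and lower in 2093 (17.1%). The median called difference was 0.27 on the log2 scale, a 1.21-fold difference. At least a 1.5-fold difference was found in 414 called genes, 142 higher and 272 lower after NaCl. At least a 2-fold difference was found in 53 (0.434% of the genes tested), 16 higher and 37 lower. Of those 53 genes, 25 had a mean level under 5 CPM.

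Sizes were small, yet many genes kept their direction across passages. In 450 of the called genes NaCl lay above raffinose in all 12 same-passage pairs, and in 556 it lay below in all 12. Together with 2 genes that did not pass, these were 8.26% of the genes tested, against 33.2% called. Full separation of the libraries was rarer. In 25 called genes every NaCl library lay above every raffinose library, with a median log2 difference of 0.67, and in 13 every NaCl library lay below, with a median of -0.54. These 38 genes were 0.311% of the genes tested, and 5 of them reached 2-fold. The split between directions depended on scaling: NaCl was the higher solute in 48.3% of calls with TMM factors, and in 69.4% with scaling by library totals alone, which moved the median of all genes to 0.06. In bulk RNA, fewer cells that express a gene and less RNA per cell cannot be told apart.

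**Figure D1:**
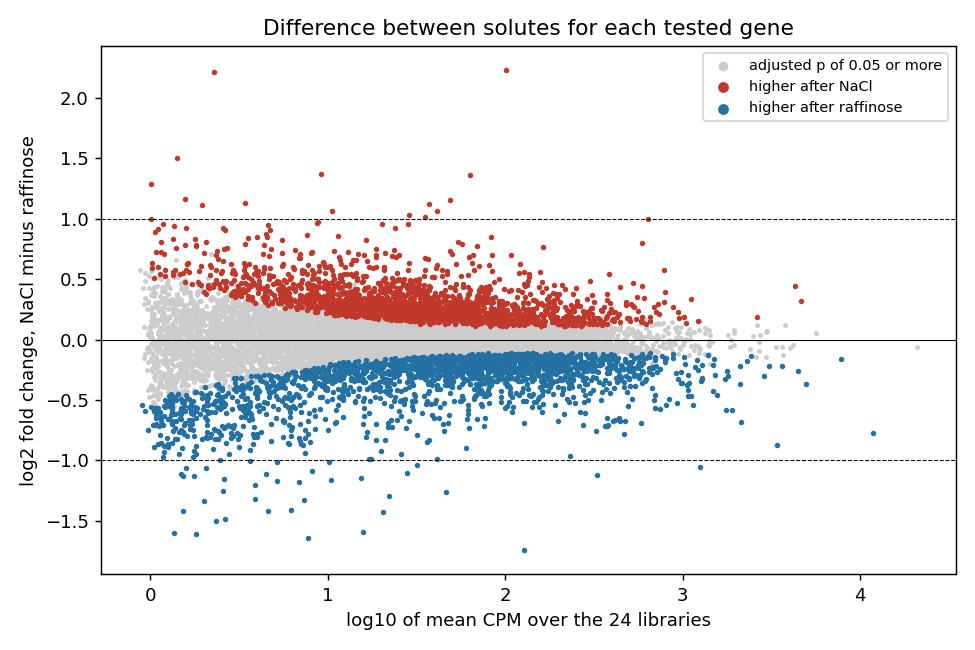
Log2 fold change of NaCl minus raffinose (vertical axis) against log10 of the mean CPM over the 24 libraries (horizontal axis) for each of the 12208 tested genes; coloured points passed at an adjusted p under 0.05. The dashed lines mark 2-fold, and 53 called genes lie on or beyond them.

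For single genes, 929 were called, averaged 5 CPM or more and moved 1 way in all 12 pairs, and the 2 farthest up and 2 farthest down of these are described. The largest difference was in ENSCAFG00000007045 (chromosome 24, 21094771 to 21096390, plus strand, 3 exons). Its level after NaCl was 66.8 CPM at the lowest, 172 at the median and 303 at the highest, and after raffinose it was 16.5, 25.3 and 64.7 CPM. Every NaCl library lay above every raffinose library, although only narrowly at the extremes. The log2 fold change was 2.23 ± 0.13 (SE, n = 12 pairs, edgeR adjusted p = 8.63e-12), and the pairs ran from 1.49 at passage 1 to 3.65 at passage 8. Levels averaged 12.3 ± 2.05 CPM after urea and 150.2 ± 48.2 CPM in control (SD, n = 12 each). On the log2 scale and against the same control libraries, the difference was 0.14 ± 0.14 after NaCl (edgeR adjusted p = 0.356), -2.10 ± 0.15 after raffinose and -3.53 ± 0.12 after urea. Its difference from control did not pass after NaCl, whereas it was lower than control after both uncharged solutes.

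ENSCAFG00000033956 (chromosome 17, 5956896 to 5958887, plus strand, 2 exons) was also higher after NaCl. It ranged from 4.37 through a median of 12.9 to 20.1 CPM after NaCl, and from 1.66 through 5.22 to 9.90 CPM after raffinose. The groups overlapped, and the separation came from the pairs. The log2 fold change was 1.37 ± 0.16 (edgeR adjusted p = 4.23e-07), with pairs from 0.19 at passage 1 to 3.18 at passage 10, and it was 1.23 without passage 10. Here both solutes lay below control, which averaged 28.6 ± 13.2 CPM, and urea lay lower still at 2.54 ± 1.04 CPM. Against control the log2 difference was -1.05 ± 0.15 with NaCl, -2.46 ± 0.17 with raffinose and -3.48 ± 0.11 with urea.

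In the other direction, ENSCAFG00000003029 (chromosome 13, 62434792 to 62438932, plus strand, 4 exons) was lower after NaCl than after raffinose. It had 15.1 CPM at the lowest, 59.2 at the median and 119.7 at the highest after NaCl, against 61.2, 194 and 372 CPM after raffinose. The groups overlapped, since 6 NaCl libraries lay above the lowest raffinose library, that of passage 8. The log2 fold change was -1.74 ± 0.14 (edgeR adjusted p = 3.20e-09), and the pairs ran from -3.09 at passage 14 to -0.78 at passage 10. The gene was nearly silent without a rise in tonicity, at 4.24 ± 1.36 CPM after urea and 3.63 ± 1.37 CPM in control. Its log2 difference from control was 4.03 ± 0.23 for NaCl, 5.73 ± 0.23 for raffinose and 0.26 ± 0.13 for urea (adjusted p = 0.0822 for urea).

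ENSCAFG00000008335 (chromosome 32, 133974 to 140832, plus strand, 2 exons) was the steadiest of the 4 across passages. NaCl libraries had 1.97, 3.82 and 6.72 CPM at the lowest, median and highest, against 6.91, 10.4 and 17.0 CPM after raffinose. No NaCl library reached the lowest raffinose library. The log2 fold change was -1.64 ± 0.10 (edgeR adjusted p = 8.63e-12), with pairs from -2.03 at passage 4 to -1.06 at passage 10. Urea raised this gene as well: levels averaged 2.92 ± 0.986 CPM after urea and 0.454 ± 0.408 CPM in control. The log2 differences from control were 3.03 ± 0.25 for NaCl, 4.67 ± 0.23 for raffinose and 2.70 ± 0.26 for urea. They rest on 0 to 15 reads per control library. With a mean under 0.5 CPM in control, the gene is among those set aside below in the classes of common response. None of the 4 genes overlaps another annotated gene; near-identical copies elsewhere in the genome were not checked.

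**Figure D2:**
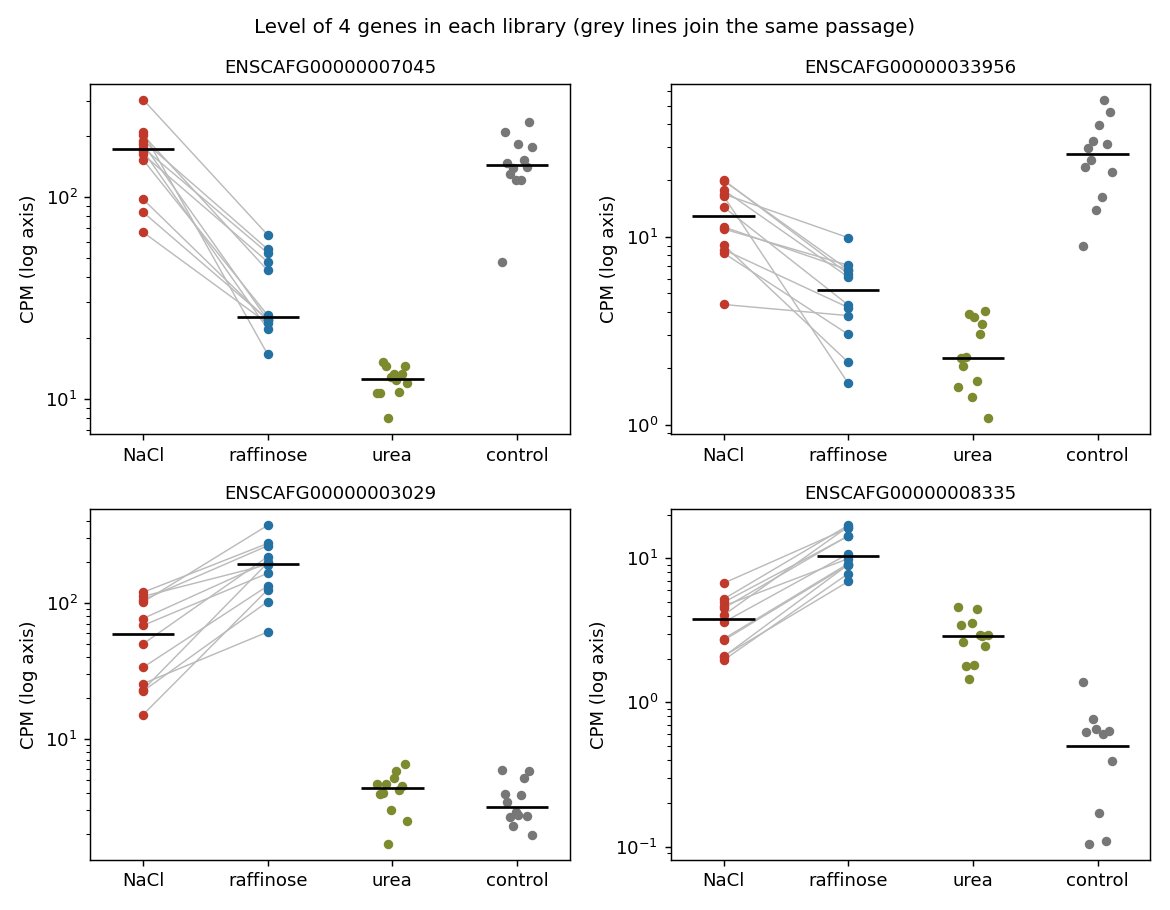
CPM (log axis) of the 4 named genes in each of the 48 libraries, by group; grey lines join NaCl and raffinose libraries of the same passage and black bars are medians. For ENSCAFG00000008335 the control libraries of passages 8 and 17, with 0 reads, cannot be drawn on a log axis and are left out. The lines slope the same way in all 12 pairs of each gene, which the naming rule required, while urea and control sit apart from both solutes for ENSCAFG00000003029.

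The genes next to these 4 differed far less. The nearest tested neighbours of ENSCAFG00000007045, 26.9 kb before it and 48.8 kb after it, differed by 0.14 and -0.16 on the log2 scale (edgeR adjusted p = 0.0163 and 0.00631). The neighbours on either side of ENSCAFG00000003029 differed by 0.23 and -0.07 (edgeR adjusted p = 0.0218 and 0.589). Of the 4 nearest neighbours of ENSCAFG00000008335, the largest difference was -0.31 (adjusted p = 0.00178), and the closest, 2.19 kb away, differed by -0.07 (adjusted p = 0.807). The neighbour 21.5 kb after ENSCAFG00000033956 differed by -0.003 (adjusted p = 0.975).

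The difference between the solutes followed what they share. Each gene was sorted by its common response, the mean of NaCl and raffinose minus control over all 48 libraries. Of 1325 genes raised at least 2-fold in common, 260 had a mean under 0.5 CPM in control. Such genes entered the test only through their reads after NaCl or raffinose and are set aside. The filter used only these libraries, so genes somewhat above 0.5 CPM in control may have entered the same way. Among the other 1065 raised genes, 68 were higher after NaCl than after raffinose (6.38%) and 497 were lower (46.7%), against 16% and 17.1% of all genes tested. Among 959 genes lowered at least 2-fold in common, 432 were higher after NaCl (45%) and 31 were lower (3.23%). NaCl thus lay closer to control than raffinose in most called genes of both classes. Measured against the shared control libraries, the median log2 change of the raised class was 1.42 after NaCl and 1.61 after raffinose, and that of the lowered class was -1.25 after NaCl and -1.46 after raffinose. The common response is free of the difference between the solutes where both groups vary alike, which they did not fully: the median distance between passages was 0.474 after raffinose and 0.418 after NaCl (root mean square log2 difference). The part of this wider spread in the order of the classes was not tested; the median SE of the common response was 0.0928 in the raised class and 0.0858 in the lowered class on the log2 scale.

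The same order was found among smaller responses, at smaller shares. Of 3487 genes raised less than 2-fold in common, 225 were higher and 951 lower after NaCl than after raffinose. Of 4139 genes lowered less than 2-fold, 1004 were higher and 223 lower. Among 2298 genes with no called common response the directions were nearly even, with 216 higher (9.4%) and 263 lower (11.4%). Those 216 genes had a median log2 change from control of 0.13 after NaCl and -0.12 after raffinose, and the 263 had -0.11 after NaCl and 0.15 after raffinose. Of the 37 genes at least 2-fold lower after NaCl, 16 were among the 260 set aside for their low level in control, and 10 were among the other raised genes.

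**Figure D3:**
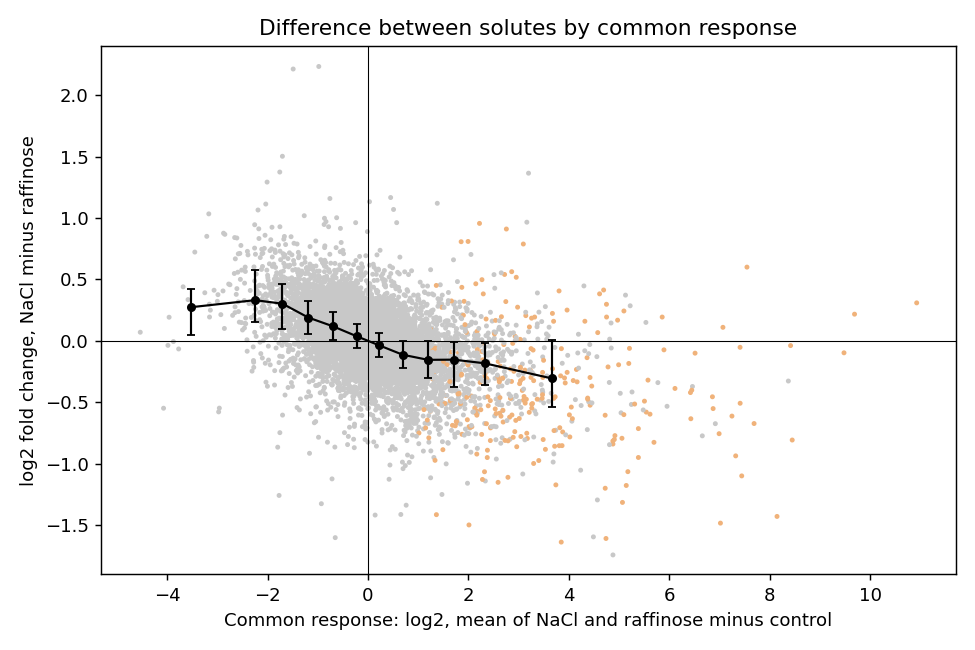
Log2 fold change of NaCl minus raffinose (vertical axis) against the common response, the log2 mean of NaCl and raffinose minus control (horizontal axis), for each tested gene. Orange points are the genes under 0.5 CPM in control. Black points are medians of bins of the common response over the 11948 genes with at least 0.5 CPM in control, with bars from the lower to the upper quartile; the median is 0.33 for genes lowered by 2 to 3 log2 units and -0.31 for genes raised by more than 3.

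This order was found in every passage, and for raised genes in each range of control level from 0.5 CPM up. The range from 0.5 to 5 CPM may still hold raised genes that passed the filter only through NaCl or raffinose. For lowered genes it was found from 5 CPM up, and on few calls also between 0.5 and 5 CPM when set against all genes of that range. Among all genes with over 50 CPM in control, 20.4% were higher after NaCl and 20.3% lower. Of 265 raised at least 2-fold, 23 were higher (8.68%) and 136 lower (51.3%). Of 279 lowered at least 2-fold, 180 were higher (64.5%) and 17 lower (6.09%). Between 5 and 50 CPM in control, the shares of all genes were 16.8% and 13.5%. There 27 of 398 raised genes were higher (6.78%) and 199 lower (50%), and 244 of 591 lowered genes were higher (41.3%) and 9 lower (1.52%). Between 0.5 and 5 CPM, the shares of all genes were 4.84% and 16.6%. There 18 of 402 raised genes were higher (4.48%) and 162 lower (40.3%). Only 8 of 89 lowered genes were higher (8.99%) and 5 lower (5.62%). These counts are nearly even, but the share higher was above that of all genes in the range and the share lower was below it. The median log2 difference of the 89 genes was 0.15, above 0 in 11 passages, against -0.05 for all genes of the range. In the 12 same-passage pairs, the median difference of the raised class was below 0 each time, from -0.21 at passage 5 to -0.11 at passage 16. That of the lowered class was above 0 each time, from 0.04 at passage 16 to 0.39 at passage 19. Scaled by library totals only, the raised class had 103 genes higher and 399 lower after NaCl, and the lowered class 509 higher and 27 lower. Without the block for passage these counts were 22 and 279 in the raised class, and 233 and 7 in the lowered class.

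Sorted by the response to urea instead, most classes had shares nearer to those of all genes. Urea minus control shares no library with NaCl minus raffinose. Of 3954 genes raised by urea, 617 were higher after NaCl (15.6%) and 817 lower (20.7%), and of 3615 lowered by urea, 660 were higher (18.3%) and 559 lower (15.5%). With library totals only, the genes raised by urea split the other way, 974 higher and 539 lower. All tested genes did so too under that scaling, at 3057 higher and 1347 lower of 12208. Genes raised at least 2-fold by urea were an exception: 32 of 307 were higher after NaCl (10.4%) and 121 lower (39.4%). These 307 genes were also raised at the median by the other solutes, by 0.613 after NaCl and 0.817 after raffinose (log2 against control). For all genes raised by urea these medians were 0.126 and 0.135. Of 553 lowered at least 2-fold by urea, 86 were higher (15.6%) and 110 lower (19.9%). Where the common response and urea went opposite ways, the direction went with the common response. Of 1068 genes raised in common and lowered by urea, 79 were higher after NaCl than after raffinose (7.4%) and 344 lower (32.2%). Of 1317 genes lowered in common and raised by urea, 414 were higher (31.4%) and 91 lower (6.91%). With library totals only these counts were 139 and 237, and 590 and 59. The shares were close where both went the same way. They were 7.03% and 33.6% of 1963 genes raised in common and by urea, and 27.1% and 5.59% of 1914 genes lowered by both. The classes by urea and these combinations include genes under 0.5 CPM in control.

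**Figure D4:**
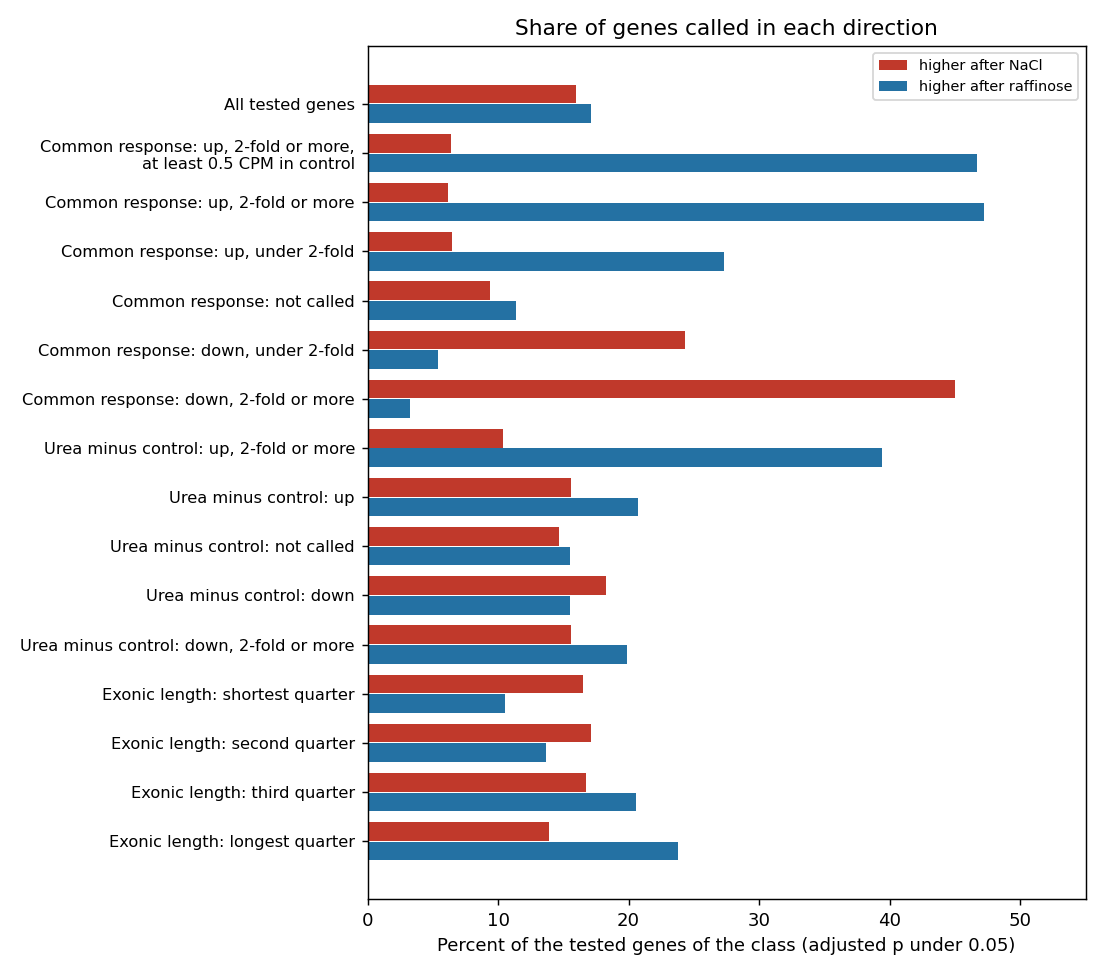
Percent of the tested genes of each class that were higher after NaCl (upper bar) or higher after raffinose (lower bar) at an adjusted p under 0.05. The shares are 6.38% and 46.7% for genes raised at least 2-fold in common with at least 0.5 CPM in control, 45% and 3.23% for genes lowered at least 2-fold in common, and 16% and 17.1% for all genes. Of the urea classes, genes raised at least 2-fold lie farthest from all genes, at 10.4% and 39.4%.

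Gene length moved with the comparison as well. In the shortest quartile of genes (52 to 1269 exonic bases), 504 of 3055 were higher after NaCl (16.5%) and 320 lower (10.5%). In the longest (4174 bases and more), 423 of 3052 were higher (13.9%) and 726 lower (23.8%). Of all genes 16% were higher and 17.1% lower, so mainly the share lower after NaCl moved with length. With library totals only, NaCl was higher in more genes of both quartiles, at 800 and 199 in the shortest and 701 and 483 in the longest. The same held for all tested genes, at 3057 and 1347. The trend was uneven over passages: the median difference of the shortest quartile was 0.24 at passage 8, 0.14 at passage 17 and -0.10 at passage 16, and that of the longest was -0.17, -0.11 and -0.00. When each library's trend with length was removed, the shortest quartile had 377 genes higher and 439 lower and the longest 591 and 608. The raised class of the common response then had 74 genes higher and 499 lower, and the lowered class 428 higher and 34 lower.

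**Figure D5:**
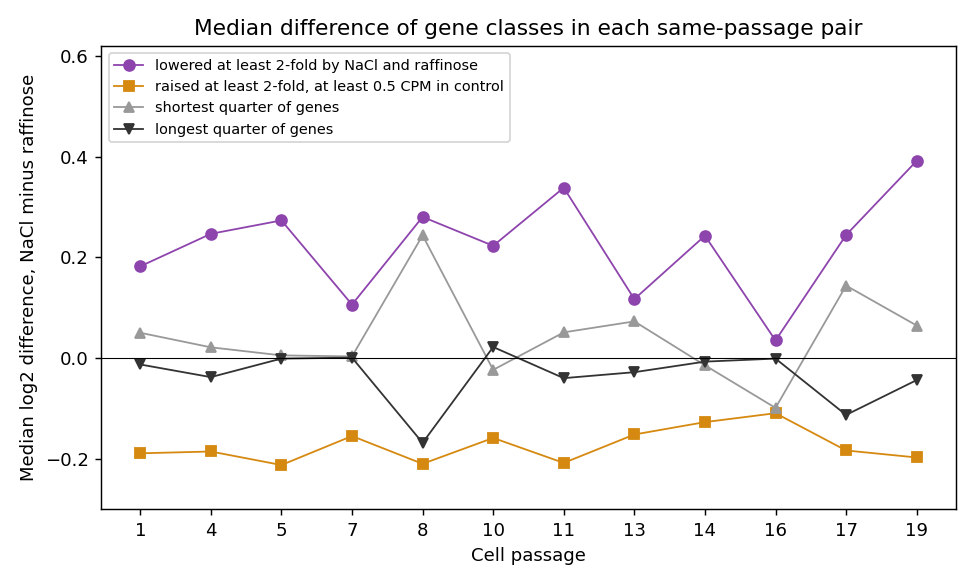
Median log2 difference of NaCl minus raffinose (vertical axis) in each same-passage pair (horizontal axis, passage number) for genes raised at least 2-fold in common with at least 0.5 CPM in control, for genes lowered at least 2-fold in common, and for the shortest and longest quartile of genes. The raised class lies between -0.21 and -0.11 and the lowered class between 0.04 and 0.39, whereas the length quartiles cross 0 and lie farthest apart at passage 8.

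Raffinose libraries were also more concentrated on their most abundant genes. The 10 most abundant genes of a library took 6.77 ± 0.57% of its reads after NaCl and 7.42 ± 0.68% after raffinose (SD, n = 12 each), with 6.76 ± 0.54% in control. NaCl was lower in 10 of 12 pairs (two-sided exact permutation test over pairs, p = 0.00342, adjusted p = 0.0171 over 5 measures). At a common depth of 6.60 M reads, 15725 ± 186 genes were detected after NaCl and 15914 ± 212 after raffinose, with NaCl lower in 10 of 12 pairs (exact permutation p = 0.00879, adjusted p = 0.022). Genes of 1 exon took 6.66 ± 0.64% of reads after NaCl and 6.58 ± 0.55% after raffinose (exact permutation p = 0.588). Between the mean profiles of the solutes, 5.49% of all reads lay on other genes, and 399 genes carried 50% of that shift.

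Among mitochondrial genes, which encode parts of the respiratory chain, the RNAs of the mitochondrial ribosome and transfer RNAs, the calls leaned towards raffinose. Of 31 tested genes of the mitochondrial genome, 0 were higher and 11 lower after NaCl (35.5%, against 17.1% of all genes). The median log2 difference of the 31 genes was -0.15. By passage it ran from -0.45 to 0.12 and was above 0 in 3 passages. Of the 11, 6 are under 100 bases long, as are 16 of the 31 tested. Several of these short genes had low levels, such as that at 15323 to 15392 with 0.88 CPM after NaCl and 1.65 CPM after raffinose. With library totals only, 1 was higher and 6 lower. The clearest was the gene at 70 to 1023 (plus strand), singled out after its values were seen. It had 338 ± 156 CPM after NaCl, 550.4 ± 253 CPM after raffinose, 207 ± 128 CPM after urea and 236 ± 50.5 CPM in control, a log2 difference between NaCl and raffinose of -0.67 ± 0.10 (edgeR adjusted p = 1.85e-05) with NaCl lower in all 12 pairs. The gene that follows it, at 1091 to 2670, differed by -0.43 ± 0.10 (edgeR adjusted p = 0.00152) with NaCl lower in 10 of 12 pairs. Its spread was wide, at 430 ± 280 CPM after NaCl and 547 ± 201 CPM after raffinose. The mitochondrial share of all reads was 4.74 ± 0.76% after NaCl and 4.77 ± 0.71% after raffinose, higher after NaCl in 6 of 12 pairs (two-sided exact permutation test, p = 0.845).

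Libraries differed by passage as well as by solute. Of the variance of log2 CPM among the 24 libraries, solute accounted for 13.6% with 1 term and passage for 63.6% with 11 terms. The root mean square log2 difference was 0.385 at the median between NaCl and raffinose of the same passage, 0.418 between passages after NaCl and 0.474 between passages after raffinose. The closest of the other libraries was the same-passage library of the other solute for 2 of 12 NaCl libraries and 6 of 12 raffinose libraries. The spread of the pair difference over genes was between 0.345 (SD, passage 5) and 0.516 (passage 8). At passage 8 the totals were 12.9 M after NaCl and 6.60 M after raffinose, the shallowest of the 24 libraries; the part of depth in this spread was not tested. Across genes, each pair's difference correlated with the mean of the other 11 pairs at between 0.366 (passage 16) and 0.654 (passage 19), a description over genes that are not independent.

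No gene was called for a difference between solutes that varied linearly with passage number, which does not show that no such trend exists. The solute by passage term passed in 0 of 12208 genes (0%) by edgeR's quasi-likelihood test, with 300 genes (2.46%) at an unadjusted p under 0.05. The slopes of the 4 named genes, in log2 units per 10 passages, were -0.03 ± 0.24 for ENSCAFG00000007045, -0.09 ± 0.31 for ENSCAFG00000033956, -0.12 ± 0.27 for ENSCAFG00000003029 and 0.08 ± 0.18 for ENSCAFG00000008335 (adjusted p = 1.00 for each).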

How the data were processed

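The authors deposited raw read counts per gene for 48 libraries. Per the labels, polyadenylated RNA was sequenced as single reads. Per the submitters' processing notes, CASAVA, HISAT2 2.0.5 and featureCounts 1.5.1 were used; per the file headers, exon reads were summed for each gene with strand ignored, on Ensembl release 87 of CanFam3.1. Such counts do not separate a gene from transcripts on the opposite strand. Of 32704 genes, 23893 had a read in the 24 libraries; 0 rows named no gene and 0 columns of values were unused. The table's passage 10 columns carry an added number of unknown meaning and were matched to passage 10.

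Genes were kept by filterByExpr over the NaCl and raffinose libraries (12208 genes), scaled by TMM factors over all 48 libraries, and fitted with edgeR 4.0.16 in R 4.3.3 (glmQLFit, glmQLFTest) on the 24 libraries with terms for solute and passage, with Benjamini-Hochberg adjustment over all genes tested and a threshold of 0.05. The procedure was tested on simulated data. The common coefficient of biological variation was 9.99%, for what remains between libraries after the terms for solute and passage. Standard errors are log2 fold changes divided by root F. Log2 CPM used a prior count of 2. Values against control came from the same kind of fit over 48 libraries, and urea minus control from its own 24. Exon numbers are merged exon blocks.

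The passage labels pair the libraries: deviations from the group means correlated at 0.458 on average over the 12 same-passage pairs (0.195 to 0.724), against -0.041 between other passages. No library pair of a solute agreed within sampling noise (lowest chi-square per gene 8.55). For library-wide measures, exact permutation over pairs was used.

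Genes named are the 2 highest and 2 lowest log2 fold changes among called genes averaging 5 CPM or more whose 12 pairs all moved 1 way. Members, classes and alternatives were chosen with earlier results of these data known. Lists of genes by symbol, prepared for transporters, osmolytes, stress pathways and cell markers, were not used here because the identifiers carry no symbols. Alternatives were RLE factors, library totals only, TMM from the 24 libraries, no filter, a 5 CPM minimum, DESeq2 1.42.0, no block, all 48 libraries, glmTreat, and each passage left out; without passages 8 and 16, removal of the length trend, and the groups by length, mitochondrial genome, control level and urea within the common response were added after seeing the data.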

Additional observations from a re-analysis of the deposited data

How the results depend on the processing

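The 4 named genes kept their direction and passed in all 96 alternatives run for them. The naming rule took the most extreme called genes whose pairs all moved the same way. Their direction could therefore hardly reverse when a passage was left out, and those runs are no independent check of it. Counts of called genes stayed within 1.5 times under RLE factors, TMM from the 24 libraries, DESeq2 (3859), all 48 libraries (3587) and each passage left out (3526 without passage 19 to 4182 without passage 16). Without the replicate block, 1716 genes passed, 797 higher and 919 lower after NaCl, all 1716 of them called in the same direction with it. In that unpaired fit the counts higher and lower after NaCl were 28 and 356 for genes raised at least 2-fold in common (22 and 279 of those with at least 0.5 CPM in control, in place of 68 and 497), 233 and 7 for those lowered, 272 and 374 for genes raised by urea, 233 and 222 for those lowered by urea, 190 and 137 for the shortest quartile and 175 and 326 for the longest; the cause was not tested. Tested against a minimum fold of 1.2, 608 genes passed (254 higher, 354 lower), and against 1.5, 59 passed (18 higher, 41 lower). At least 2-fold differences numbered 161 with no filter and 28 with a 5 CPM minimum, where more and fewer low genes are tested, in place of 53.

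Library totals only gave 3057 genes higher and 1347 lower. The counts were then 974 and 539 for genes raised by urea, 347 lower for those lowered by urea, 800 and 199 for the shortest quartile, 701 and 483 for the longest, and 1 and 6 for the mitochondrial genome. Genes higher numbered 103 among those raised at least 2-fold in common with at least 0.5 CPM in control, 250 among those raised in common and by urea, and 139 among those raised in common and lowered by urea; genes lower numbered 59 among those lowered in common and raised by urea and 58 among those lowered by both. The depth difference between solutes lay between 0.626 M and 1.85 M with each passage left out, and passed only without passage 13 (exact permutation p = 0.04). The solute by passage term gave 0 genes in every alternative run for it. Reads carry no molecular identifiers, and depth limits the test for low genes: at 1 CPM the shallowest of the 24 libraries has 6.22 reads.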

Other observations

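Neighbouring genes sometimes differed together. Stretches of at least 4 consecutive tested genes called in the same direction were counted among the 12208 tested genes. With NaCl higher there were 15 (67 genes), and with NaCl lower 30 (135 genes). The longest had 7 genes in both directions. Of all tested genes, 16% were called higher and 17.1% lower after NaCl. The stretches were picked by their calls, so their values are a description. On chromosome 13 from 35181187 to 35748183, 7 genes were lower after NaCl, with a median log2 difference of -0.49 (-1.08 to -0.21); against control their median change was 0.57 with NaCl, 1.07 with raffinose and 0.08 with urea. On chromosome 3 from 51822475 to 52249292, 5 genes were lower by a median of -0.78 (-1.41 to -0.42), and 4 of them were so in all 12 pairs. These 5 genes had the highest medians from control of all stretches of 5 or more genes, at 4.81 with NaCl and 5.24 with raffinose, while urea gave 0.46. On chromosome 32 from 17294727 to 21241378, 7 genes were higher after NaCl by a median of 0.31 (0.18 to 0.91), with medians from control of -0.09 after NaCl and -0.50 after raffinose. All 12 pairs agreed for only 2 genes of the chromosome 13 stretch and 1 of the chromosome 32 stretch. On chromosomes 13, 3 and 32, respectively, 2, 2 and 3 members overlap another annotated gene, and the counts ignore strand.

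Over 39 chromosomes (1 to 38 and X), the share of tested genes called ran from 27.7% on chromosome 21 to 39.3% on chromosome 3, around the 33.2% of all genes. The share higher after NaCl ran from 11.2% on chromosome 21 to 24% on chromosome 32, and the share lower from 11.3% on chromosome 28 to 21.4% on chromosome 38; differences between chromosomes were not tested. Genes of a single exon were called less often: 70 of 779 were higher after NaCl (8.99%) and 111 lower (14.2%), against 1889 and 1982 of 11429 genes with more exons (16.5% and 17.3%); this difference in shares was not tested.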
